A study of Homo sapiens with 24 samples.

Results

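The 9 genes described here belong to the transforming growth factor β (TGF-β) and activin pathway. They are the ligand genes TGFB1, TGFB2, TGFB3 and INHBA, the receptor genes TGFBR1, TGFBR2 and TGFBR3, and the feedback regulators SMAD7 and SKIL. They were chosen by name and looked up by Ensembl identifier among the 60279 genes of each count table. All 9 were among the 19997 genes that averaged 5 counts or more per library and were tested.

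Expression was measured by RNA sequencing of poly(A) RNA in SW872, an established human liposarcoma line, in 8 groups of 3 libraries. Every group carried a stably integrated retroviral vector, and each construct was a Flag-tagged protein expressed in a pooled population of this 1 line. EV is empty vector, EVsub is empty vector collected before confluence, as its titles say, and CAMTA1 is the full-length transcription factor, also collected before confluence. TFE3 is the full-length transcription factor, and TAZ-CAMTA1 and YAP-TFE3 are fusions that join the N-terminal part of TAZ or YAP to the C-terminal part of CAMTA1 or TFE3. TAZ4SA and YAP5SA are forms of TAZ (gene WWTR1) and YAP (gene YAP1) in which serines that the LATS kinases phosphorylate are alanine. EV and these last 5 groups were collected 48 h after confluence.

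In this pathway a dimeric ligand brings together the type 2 receptor, TGFBR2, and the type 1 receptor, TGFBR1. TGFBR1 then phosphorylates SMAD2 and SMAD3, which enter the nucleus with SMAD4. TGFBR3, or betaglycan, is a co-receptor that presents ligand and is best known for its affinity for the product of TGFB2. INHBA encodes the subunit of activin A, which signals through its own receptors to the same SMAD2 and SMAD3. SMAD7 is an inhibitory SMAD that blocks TGFBR1, and SKIL (SnoN) represses transcription by SMAD complexes. Both are induced by the pathway and restrain it. YAP and TAZ act through the TEAD DNA-binding proteins, and mesenchymal cells such as those of a liposarcoma usually produce and respond to TGF-β.

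The construct genes were examined first. Levels are in CPM, counts per 1000000 counts of the scaled library size. CAMTA1 lay at 21.4 ± 2.05 CPM in EV (mean ± SD, n = 3, here and throughout) and rose to 144 ± 7.14 CPM with TAZ-CAMTA1, and it lay at 22.9 ± 1.23 CPM in EVsub and 124 ± 8.09 CPM in CAMTA1. TFE3 was at 119 ± 10.1 CPM in EV, 336 ± 19.3 CPM in TFE3 and 283 ± 49.6 CPM in YAP-TFE3. It was also called higher under the TAZ4SA label (174 ± 14.3 CPM, log2 change 0.54) and in YAP5SA (186 ± 14 CPM, 0.64). YAP1 was at 128 ± 12.5 CPM in EV and 253 ± 4.99 CPM in YAP5SA. In YAP-TFE3 YAP1 overlapped EV, at 153 ± 16 CPM (0.26, adjusted p = 0.0341), and in TAZ-CAMTA1 it was at 168 ± 11.4 CPM (0.40, adjusted p = 0.0175). WWTR1 did not follow its label: it was at 204 ± 20.3 CPM in EV and at 134 ± 0.539 CPM in the libraries labelled TAZ4SA. It also lay below EV in YAP-TFE3 (126 ± 3.18 CPM) and YAP5SA (68.8 ± 1.66 CPM). The libraries labelled TAZ4SA were 0.97 above YAP5SA on the log2 scale (SE 0.08, adjusted p = 2.08e-08). The WWTR1 counts thus did not show the construct against EV, and the group is taken from its label. The paper reports a Western blot of Flag-tagged TAZ4SA in SW872 cells. WWTR1 was not called higher in TAZ-CAMTA1 either (181 ± 2.15 CPM, log2 change -0.17, adjusted p = 0.236), although CAMTA1 rose there. Library totals ran from 19700277 to 35287476 counts. All 5 mesenchymal markers were detected in every library, with a sum of 2986 to 3462 CPM in EV, 1634 to 2248 CPM under the TAZ4SA label and 1755 to 2658 CPM in YAP5SA. Meanwhile the adipocyte marker ADIPOQ was at 0 counts in all 24 and LEP and CIDEC never exceeded 3 counts. The other adipocyte markers were detected at low counts, PLIN1 at 10 to 38 per library and FABP4 at 0 to 23. The endothelial markers CDH5 and PECAM1 together reached 38.5 to 62.1 CPM in EV and lay below every EV library in EVsub (21.1 to 29.8), CAMTA1 (15.3 to 20.4), TAZ4SA (21.8 to 37.6), YAP-TFE3 (18 to 31.2) and YAP5SA (5.06 to 9.28). The part of these markers in the results was not tested. YAP-TFE3 replicate 3 had the lowest mean correlation with its own group, a Pearson r of 0.986 across genes, against 0.988 to 0.993 for the other 23 libraries. It held TFE3 at 228 CPM, against 296 and 325 CPM in replicates 1 and 2 of its group. Its share of mitochondrial counts was 5.12%, against 3.63% and 3.79%. The part of these differences in the results was not tested. Results without this library are given where a call changed or a change against EV moved strongly.

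TGFB2, TGFB3 and INHBA, the 3 ligand genes with the widest range, are shown by the genomic sequence upstream of their starts. The reason is that the constructs are transcription factors or act through DNA-binding partners. RefSeq promoter windows on GRCh38.p14 covered 20 starts of the 9 genes. The 250 bases upstream of each start were searched on both strands for 5 motifs, and the 50 bases after it were not. The letters were GGAATG, the core bound by TEAD proteins, GTCTAGAC, the palindrome bound by SMAD proteins, TGANTCA for AP-1, TGACGTCA for the cAMP response element, and CACGTG, the core of the element bound by TFE3. Of all 35116 windows, 11.9% held the TEAD core, 0.182% the SMAD palindrome, 6.57% AP-1, 1.65% the cAMP response element and 6.34% CACGTG. The sequences are 5′ to 3′ on the strand of the gene and end at the base before the start, and capitals mark every match to those motifs.
TGFB2, chr1:218345086-218345335, plus strand: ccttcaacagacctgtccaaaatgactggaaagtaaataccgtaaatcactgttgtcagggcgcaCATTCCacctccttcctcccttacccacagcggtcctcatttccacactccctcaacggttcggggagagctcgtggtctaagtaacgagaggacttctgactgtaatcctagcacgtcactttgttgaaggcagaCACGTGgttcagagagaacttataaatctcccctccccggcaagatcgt
TGFB3, chr14:75981996-75982245, minus strand: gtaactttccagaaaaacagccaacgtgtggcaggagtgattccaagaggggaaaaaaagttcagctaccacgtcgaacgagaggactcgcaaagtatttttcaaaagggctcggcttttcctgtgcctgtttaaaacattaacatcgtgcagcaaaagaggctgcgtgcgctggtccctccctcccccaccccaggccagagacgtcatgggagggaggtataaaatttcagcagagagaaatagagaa
INHBA, chr7:41703091-41703340, minus strand: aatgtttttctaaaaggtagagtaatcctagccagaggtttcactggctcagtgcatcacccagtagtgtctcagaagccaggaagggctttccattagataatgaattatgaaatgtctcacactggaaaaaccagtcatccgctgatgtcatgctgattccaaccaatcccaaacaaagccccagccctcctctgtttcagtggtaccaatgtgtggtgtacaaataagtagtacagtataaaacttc
The TGFB2 window held the TEAD core as CATTCC at positions -185 to -180 from the start and CACGTG at -49 to -44. The windows of TGFB3 at this start and of INHBA held none of the 5 motifs, and the window of a second TGFB3 start held CACGTG. The TEAD core was found in 1 further window, 1 of the 8 of TGFBR1, and the cAMP response element in that of SKIL. All 250 positions of the SKIL window lie in exons of protein-coding transcripts. None of the 20 held the SMAD palindrome or the AP-1 letters. The windows of TGFB1, TGFBR2, TGFBR3 and SMAD7 held no match. Such matches describe letters in these windows and are not sites of binding.

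Against EV, the 9 genes fell into different patterns under the constructs. Under TAZ4SA and YAP5SA, TGFB2 and INHBA rose steeply while TGFB3 and all 3 receptor genes fell. Under TAZ-CAMTA1 and YAP-TFE3, TGFB2 rose less, TGFBR2 rose, and neither TGFBR1 nor TGFBR3 fell. SMAD7 and SKIL were called in 1 comparison each. Calls here are adjusted p-values under 0.05 from the quasi-likelihood test of edgeR with Benjamini-Hochberg adjustment over all tested genes. Per the study's methods, the 3 replicates of a group came from separate transductions and selections, so the p-values measure the spread between such populations of 1 cell line.

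The counts of calls have to be read against how many genes moved in all. In the libraries labelled TAZ4SA, 7 of the 9 were called against EV, 3 higher and 4 lower, where 49.2% of all tested genes were called, 25.1% higher and 24.2% lower. In YAP5SA it was also 7, 3 higher and 4 lower, against 44.3% of all genes, 22.7% higher and 21.6% lower. The median absolute log2 fold change of the 9 was 0.77 for TAZ4SA and 0.63 for YAP5SA, and that of all genes 0.42 and 0.38. In YAP-TFE3 5 of the 9 were called, 3 higher and 2 lower, near the background of 48.2%, with 25.6% higher and 22.6% lower, and the medians were 0.39 and 0.41. In TAZ-CAMTA1, where few genes moved, 3 of the 9 were called and all were higher, against a background of 4.98%, with 3.55% higher and 1.44% lower. The medians there were 0.32 for the 9 genes and 0.17 for all. Only 1 of the 9 was called without EV replicate 1 or 2 or TAZ-CAMTA1 replicate 2 or 3. Scaling by total counts alone moved the median log2 fold change of all genes from -0.0348 to -0.232 for TAZ4SA and from -0.0364 to -0.221 for YAP5SA, and the share of calls that were higher from 50.9% to 31.4% and from 51.2% to 31.4%. No call among the 9 genes changed direction with it.

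For the full-length transcription factors whose C-terminal parts are in the fusions, none of the 9 was called. TFE3 against EV gave 0 calls among them, with 0 at an unadjusted p under 0.05 and 0 by DESeq2, and 0.035% of all genes were called, 0.035% higher and 0 lower. CAMTA1 against EVsub gave 0 calls among the 9, with 2 at an unadjusted p under 0.05 and 0 by DESeq2, against 1.83% of all genes, 1.26% higher and 0.57% lower. By contrast, empty vector before confluence differed from confluent empty vector in 6 of the 9, 3 higher and 3 lower, where 36.8% of all genes were called, 19.8% higher and 17.1% lower. With total-count scaling the share of higher calls went from 53.7% to 42% in that comparison and from 68.9% to 56.8% in CAMTA1 against EVsub. All 5 confluent constructs were compared with the same 3 EV libraries, so their fold changes share that control.

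**Figure D1:**
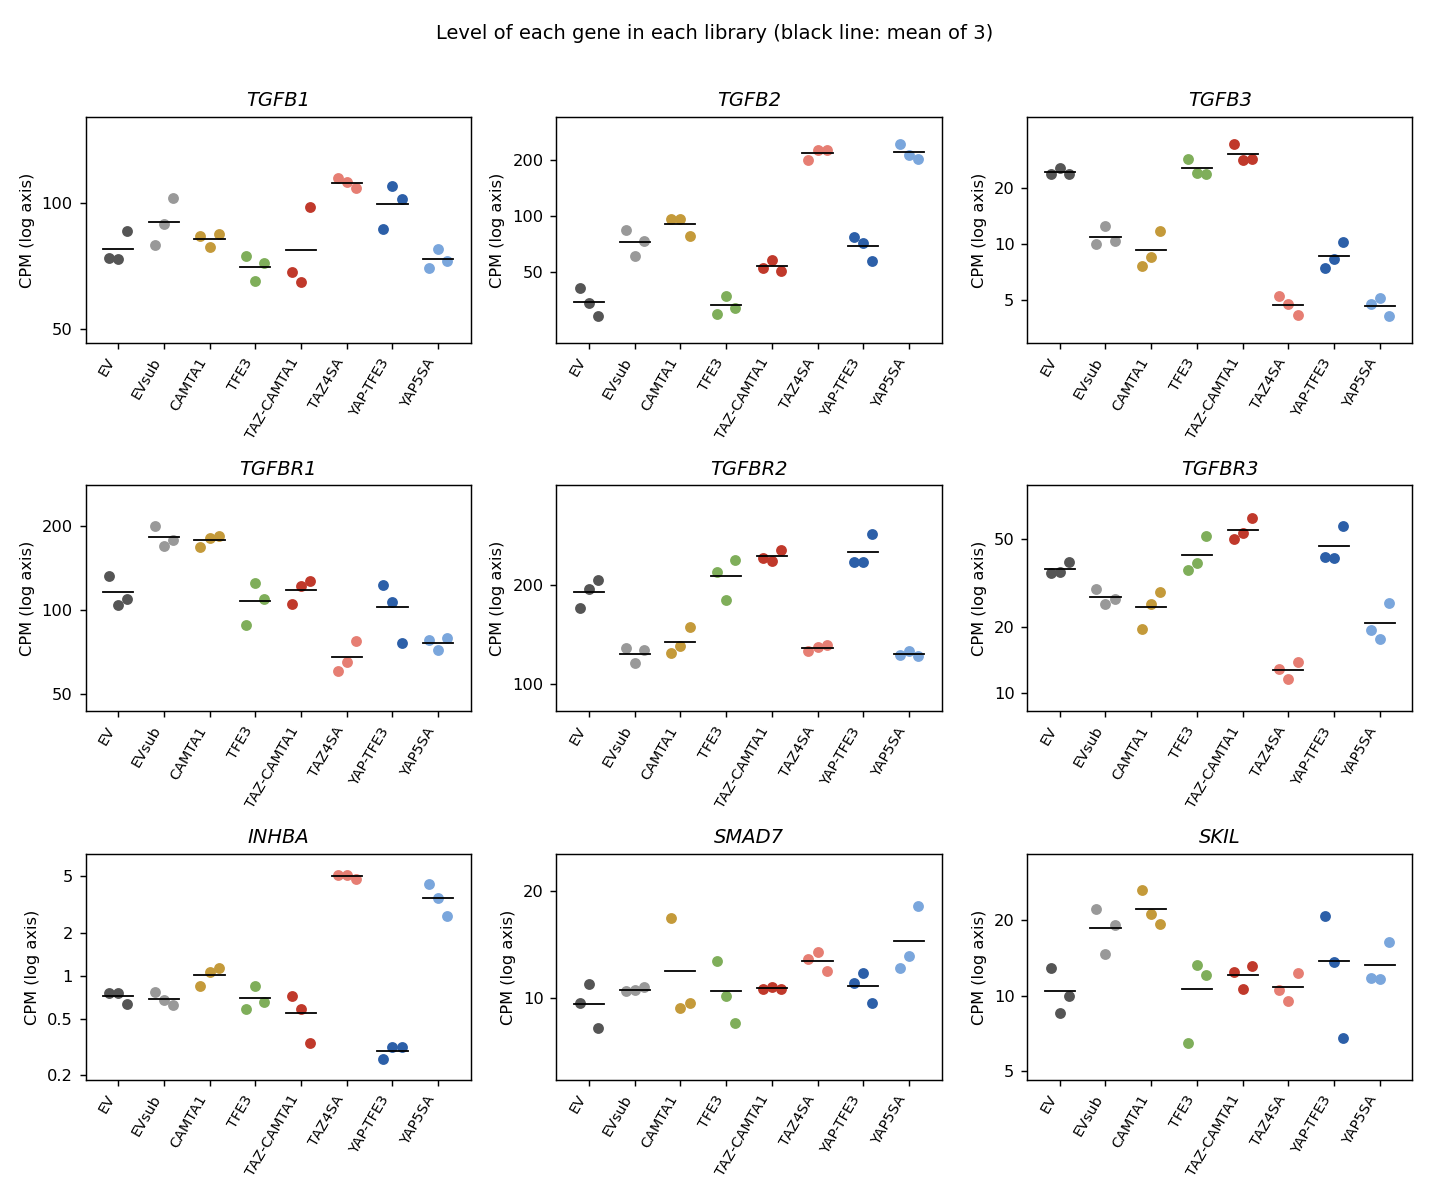
Level of each of the 9 genes in CPM (log axis) in every library, by group, with a black line at the mean of 3. The TAZ4SA-labelled and YAP5SA libraries hold TGFB2 at 201 to 245.5 CPM, every other library at 96.5 CPM or less, and they hold TGFB3 at 4.1 to 5.22 CPM.

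Among the ligands, TGFB1 was the one transcribed most in EV and moved least. Per kilobase of exon, its level in EV was 23.8 ± 2.17 CPM per kb, against 5.71 ± 0.983 for TGFB2, 4.69 ± 0.206 for TGFB3 and 0.0866 ± 0.0091 for INHBA. TGFB1 (ENSG00000105329, chromosome 19, 41301587 to 41353922, minus strand in hg38) stood at 73.6, 73.5 and 85.8 CPM in the EV libraries and at 115, 112 and 108 CPM in those labelled TAZ4SA. These do not overlap, and the rise was 0.53 on the log2 scale (SE 0.12, adjusted p = 0.00104). In YAP5SA the libraries lay among those of EV, at 69.8, 77.5 and 72.7 CPM, a log2 change of -0.08 with a 95% interval from -0.32 to 0.16.

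TGFB1 also rose in YAP-TFE3, where the libraries held 86.5, 109.8 and 102 CPM, by 0.36 on the log2 scale (SE 0.12, adjusted p = 0.0186). This call was lost, at 0.28 to 0.32 and adjusted p-values of 0.0687 to 0.0983, without EV replicate 1, EV replicate 2 or YAP-TFE3 replicate 2, and at 0.27 and 0.0802 with total-count scaling. In TAZ-CAMTA1 the libraries were spread widely, at 68.2, 64.7 and 97.9 CPM, with a log2 change of -0.01 (SE 0.12). HNRNPUL1, whose exons overlap TGFB1 on the opposite strand, was at 291 ± 6.72 CPM in EV, and its log2 changes were 0.09 (adjusted p = 0.444) for TAZ4SA and -0.43 (adjusted p = 4.49e-04) for YAP-TFE3. The libraries were stranded, but whether the deposited counts used strand is not stated, and without strand reads in the shared exons cannot be told apart.

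TGFB2 (ENSG00000092969, chromosome 1, 218345336 to 218444619, plus strand) was the ligand gene that rose in every confluent construct except TFE3. The EV libraries held 40.8, 33.8 and 28.9 CPM. Those labelled TAZ4SA held 201, 229 and 228.5 CPM and those of YAP5SA 246, 215 and 203 CPM. Both sets lie far above EV and overlap each other. The log2 fold changes were 2.67 (SE 0.14, adjusted p = 2.67e-13) for TAZ4SA and 2.68 (SE 0.14, adjusted p = 2.27e-13) for YAP5SA, and the difference of these groups was -0.01, with a 95% interval from -0.27 to 0.25.

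TGFB2 also rose in the fusions, to levels between EV and these forms. TAZ-CAMTA1 libraries held 52.5, 57.7 and 50.7 CPM, a log2 change of 0.63 (SE 0.14, adjusted p = 0.00503), and YAP-TFE3 libraries 77, 72 and 57.3 CPM, a change of 0.99 (SE 0.14, adjusted p = 1.66e-06). Neither overlapped EV, and the TAZ-CAMTA1 call held without each library in turn. TFE3 libraries, at 29.8, 37.3 and 31.9 CPM, lay among those of EV. Empty vector before confluence showed a change of like size: EVsub held 84.1, 61.1 and 73.1 CPM, 1.07 above EV on the log2 scale (SE 0.14, adjusted p = 5.19e-06). From highest to lowest the groups ran YAP5SA, TAZ4SA, CAMTA1, EVsub, YAP-TFE3, TAZ-CAMTA1, EV and TFE3, and only TAZ4SA and CAMTA1, and TAZ-CAMTA1 and EV, were neighbours whose libraries did not overlap.

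The antisense gene TGFB2-AS1, whose exons overlap those of TGFB2, moved with it at a lower level. Its level was 2.31 ± 0.293 CPM in EV, 19.2 ± 1.56 CPM under the TAZ4SA label and 20.9 ± 2.97 CPM in YAP5SA. The log2 changes were 3.04 (SE 0.18) and 3.16 (SE 0.18), and 1.36 (SE 0.19) in YAP-TFE3, all called. In TAZ-CAMTA1 the change of 0.48 (SE 0.20, adjusted p = 0.175) was not called. If the counts did not use strand, reads of the 2 genes cannot be told apart where they overlap.

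TGFB3 (ENSG00000119699, chromosome 14, 75958097 to 75983011, minus strand) went the other way. The EV libraries held 23.8, 25.7 and 23.9 CPM, those labelled TAZ4SA 5.22, 4.73 and 4.17 CPM and those of YAP5SA 4.77, 5.09 and 4.1 CPM. It fell by 2.38 (SE 0.16, adjusted p = 1.27e-11) and by 2.40 (SE 0.16, adjusted p = 1.21e-11) on the log2 scale. YAP-TFE3 libraries lay between, at 7.45, 8.26 and 10.3 CPM, and fell by 1.5 (SE 0.15, adjusted p = 1.02e-08).

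TAZ-CAMTA1 was the exception for TGFB3. Its libraries, at 34.6, 28.2 and 28.7 CPM, were all above those of EV, but the log2 change of 0.32 (SE 0.14) was not called, at an adjusted p of 0.222. EVsub, at 9.99, 12.5 and 10.4 CPM, had fallen by 1.16 (SE 0.15, adjusted p = 4.91e-06), and CAMTA1 libraries held 7.58, 8.5 and 11.7 CPM. The groups ran TAZ-CAMTA1, TFE3, EV, EVsub, CAMTA1, YAP-TFE3, TAZ4SA and YAP5SA from high to low. EV stood apart from EVsub below it and YAP-TFE3 from TAZ4SA below it, and the other neighbours overlapped. TGFB3-AS1, which shares exon positions with TGFB3, never exceeded 4 counts.

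**Figure D2:**
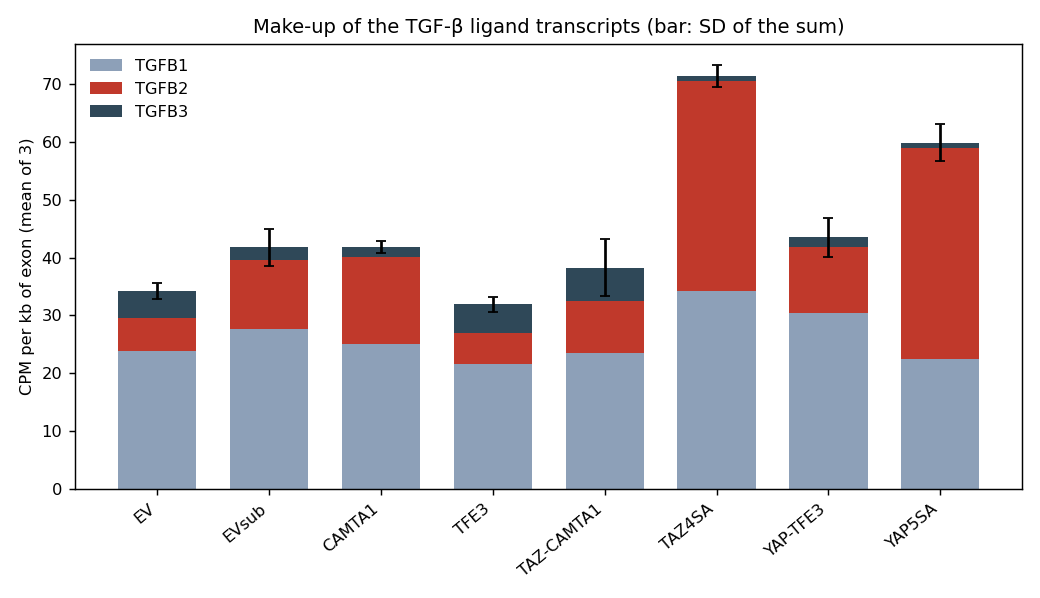
Level of TGFB1, TGFB2 and TGFB3 in CPM per kb of exon, stacked by group (mean of 3 libraries, error bar: SD of the sum). The sum is 34.2 CPM per kb in EV, of which TGFB2 is 16.8%, and TGFB2 is 50.8% of 71.4 CPM per kb in the libraries labelled TAZ4SA and 60.9% of 59.9 CPM per kb in YAP5SA.

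These opposite moves changed the make-up of the TGF-β ligand transcripts. In EV, TGFB1 made up 69.5% ± 3.75 of the summed level of the 3 genes in CPM per kb, TGFB2 16.8% ± 3.25 and TGFB3 13.7% ± 1.06. TGFB2 was the largest of the 3 in YAP5SA, at 60.9% ± 3.15, with libraries from 59% to 64.5%. In the libraries labelled TAZ4SA it took 50.8% ± 2.48 and TGFB1 48% ± 2.32. TGFB3 dropped to 1.26% ± 0.166 and 1.49% ± 0.119 in these groups. In TAZ-CAMTA1 the shares were 61% ± 6.35, 23.5% ± 4.18 and 15.5% ± 2.89, and in YAP-TFE3 69.9% ± 4.19, 26.3% ± 4.63 and 3.82% ± 0.685. These are shares of transcript and not of protein.

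INHBA (ENSG00000122641, chromosome 7, 41667168 to 41705834, minus strand) had the widest span of the 9, a group mean 16.8 times higher in the libraries labelled TAZ4SA than in YAP-TFE3, at the lowest counts. The EV libraries held 22, 20 and 13 counts, or 0.76, 0.762 and 0.63 CPM. Those labelled TAZ4SA held 5.1, 5.07 and 4.78 CPM and those of YAP5SA 4.39, 3.52 and 2.61 CPM. Both groups lay above every other library. The log2 fold changes were 2.78 (SE 0.22, adjusted p = 3.23e-10) and 2.27 (SE 0.23, adjusted p = 1.61e-08).

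INHBA fell in YAP-TFE3, whose libraries held 0.26, 0.314 and 0.318 CPM from 8 to 11 counts, by 1.26 (SE 0.30, adjusted p = 0.00126). In TAZ-CAMTA1 the libraries were at 0.72, 0.582 and 0.338 CPM, a log2 change of -0.42 (SE 0.28, adjusted p = 0.456) that was not called. CAMTA1 libraries, at 0.843, 1.06 and 1.13 CPM, did not overlap those of EVsub, at 0.763, 0.676 and 0.625 CPM, yet the difference of 0.54 (SE 0.25) had an adjusted p of 0.379. INHBA-AS1, on the opposite strand, held 0 to 13 counts per library.

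**Figure D3:**
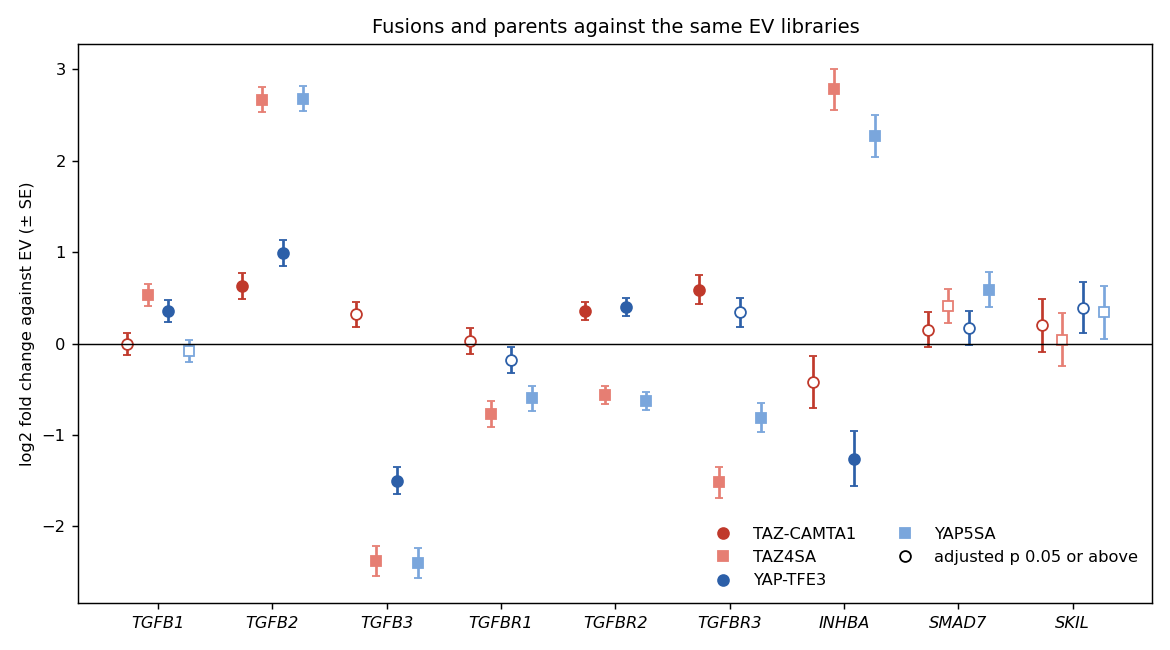
Log2 fold change against the same 3 EV libraries, with SE, for the 9 genes under 4 constructs. Circles are fusions, squares the full-length forms with substituted serines, and open symbols have an adjusted p of 0.05 or above. For TGFBR2, the circles lie at 0.36 and 0.40 and the squares at -0.56 and -0.63.

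TGFBR1, TGFBR2 and TGFBR3 parted the fusions from the full-length forms. The other receptor genes tested, named after their values were seen, did not all do so. Against EV in these groups, ACVR2A was lower only in TAZ4SA (-0.91) and YAP5SA (-0.75). ACVR2B was higher in TAZ4SA (0.38) and YAP5SA (0.35) and lower in YAP-TFE3 (-0.53). ACVRL1 was called only in TAZ4SA (0.43), ENG only in YAP-TFE3 (0.26) and ACVR1B in none. TGFBR2 was the receptor gene with the highest level per length in EV, at 27.7 ± 2.77 CPM per kb, against 14.5 ± 1.9 for TGFBR1 and 4.27 ± 0.281 for TGFBR3. TGFBR2 (ENSG00000163513, chromosome 3, 30606601 to 30694142, plus strand) held 169, 194 and 207 CPM in the EV libraries. In those labelled TAZ4SA it held 126, 129 and 131.5 CPM and in YAP5SA 122.5, 126 and 121 CPM. It fell by 0.56 (SE 0.10, adjusted p = 5.48e-05) and by 0.63 (SE 0.10, adjusted p = 1.55e-05), with no overlap.

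In the fusions TGFBR2 moved up. TAZ-CAMTA1 libraries held 240.5, 235 and 254.5 CPM, a log2 change of 0.36 (SE 0.10, adjusted p = 0.0325), and YAP-TFE3 libraries 235, 234 and 285 CPM, a change of 0.40 (SE 0.10, adjusted p = 0.00147). The TAZ-CAMTA1 call is a weak one: it was lost without EV replicate 1 or 2 or any 1 of the 3 TAZ-CAMTA1 libraries, with log2 changes of 0.28 to 0.38 and adjusted p-values of 0.0615 to 0.156. The YAP-TFE3 call held without each library in turn. EVsub, at 128, 115.5 and 127 CPM, was 0.62 below EV (SE 0.10, adjusted p = 5.06e-05).

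TGFBR1 (ENSG00000106799, chromosome 9, 99104038 to 99154192, plus strand) fell under the full-length forms and did not pass the test in the fusions. The EV libraries held 133, 104 and 109.8 CPM, those labelled TAZ4SA 60.6, 64.9 and 77.6 CPM and those of YAP5SA 77.8, 71.8 and 79.4 CPM. The falls were 0.77 (SE 0.14, adjusted p = 9.21e-05) and 0.60 (SE 0.14, adjusted p = 0.00139). TAZ-CAMTA1, at 105, 122 and 127 CPM, and YAP-TFE3, at 123, 107 and 76.4 CPM, overlapped EV, with log2 changes of 0.03 (95% interval -0.24 to 0.31) and -0.18 (-0.45 to 0.10), the latter -0.01 without YAP-TFE3 replicate 3. TGFBR1 is also where low density and the full-length forms went opposite ways. EVsub libraries held 199, 169.5 and 178 CPM, 0.66 above EV (SE 0.14, adjusted p = 8.61e-04).

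TGFBR3 (ENSG00000069702, chromosome 1, 91680343 to 91906335, minus strand) had the largest fall of the receptor genes. The EV libraries held 34.9, 35.6 and 39.4 CPM and those labelled TAZ4SA 12.8, 11.6 and 13.9 CPM, a fall of 1.52 (SE 0.17, adjusted p = 5.74e-08). YAP5SA libraries held 19.4, 17.6 and 25.6 CPM and had fallen by 0.81 (SE 0.16, adjusted p = 2.42e-04). Of TGFBR1, TGFBR2 and TGFBR3, only TGFBR3 was called between these forms: TAZ4SA lay 0.71 below YAP5SA (SE 0.17, adjusted p = 0.00799). That call was lost without TAZ4SA replicate 2 (-0.65, adjusted p = 0.0515) or YAP5SA replicate 3 (-0.53, adjusted p = 0.0765).

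In the fusions TGFBR3 lay above EV. TAZ-CAMTA1 libraries held 49.8, 53 and 62.4 CPM, a rise of 0.59 (SE 0.16, adjusted p = 0.0265), and YAP-TFE3 libraries 41.5, 40.9 and 56.9 CPM, a change of 0.34 (SE 0.16, adjusted p = 0.0721) that was not called although no library overlapped EV. The TAZ-CAMTA1 call was lost without EV replicate 1 or 2 or TAZ-CAMTA1 replicate 2 or 3, at 0.49 to 0.62 and adjusted p-values of 0.0548 to 0.165. The YAP-TFE3 change was called without YAP-TFE3 replicate 1 (0.42, adjusted p = 0.0497) or 2 (0.43, adjusted p = 0.0482). It was also called with no filter on low counts (0.37, adjusted p = 0.0101) and with the replicate number as a block (0.33, adjusted p = 0.0183). Without YAP-TFE3 replicate 3 the change was 0.17 (adjusted p = 0.388). EVsub libraries, at 29.6, 25.4 and 26.7 CPM, were 0.42 below EV (SE 0.16, adjusted p = 0.0378), a call lost without any 1 of the EV libraries or EVsub replicate 2 or 3, at -0.46 to -0.37 and adjusted p-values of 0.0502 to 0.127.

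Of the feedback regulators, SMAD7 had the narrowest range of the 9 genes, its highest group mean being 1.51 times its lowest, and SKIL spanned 2.13 times. SMAD7 (ENSG00000101665, chromosome 18, 48919853 to 48950965, minus strand) had group means from 9.62 ± 1.35 CPM in EV to 14.5 ± 3.25 CPM in YAP5SA, and every pair of neighbours in that order overlapped. It was called in 1 of the 11 comparisons. YAP5SA libraries, at 12.1, 13.1 and 18.2 CPM, lay above those of EV, at 9.67, 10.9 and 8.24 CPM, by 0.59 on the log2 scale (SE 0.19, adjusted p = 0.0123). The call was lost without EV replicate 3 (0.50, adjusted p = 0.0604), without YAP5SA replicate 3 (0.39, adjusted p = 0.111) and with total-count scaling (0.41, adjusted p = 0.0712). The libraries labelled TAZ4SA, at 12.9, 13.5 and 11.9 CPM, also lay above EV, with a change of 0.41 (SE 0.19, adjusted p = 0.0758). That change was called with no filter on low counts (0.42, adjusted p = 0.0242) and with only the groups compared (0.40, adjusted p = 0.0192).

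SKIL (ENSG00000136603, chromosome 3, 170357342 to 170396835, plus strand) varied as much within some groups as between them. YAP-TFE3 libraries held 20.9, 13.6 and 6.74 CPM and TFE3 libraries 6.43, 13.3 and 12.1 CPM. Its 1 call was for density: EVsub, at 22.3, 14.7 and 19.1 CPM, lay above EV, at 12.9, 8.54 and 9.99 CPM, by 0.84 (SE 0.28, adjusted p = 0.0234). It was lost without EV replicate 2 or 3 or EVsub replicate 1 or 3, at 0.69 to 0.82 and adjusted p-values of 0.0559 to 0.104, and with total-count scaling (0.77, adjusted p = 0.0502). Without YAP-TFE3 replicate 3, the lowest of its group, the YAP-TFE3 change against EV went from 0.39 (adjusted p = 0.277) to 0.71 (adjusted p = 0.0191). It was also called with no filter on low counts (0.42, adjusted p = 0.0178).

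Each fusion was then compared directly with the full-length form of its N-terminal partner, which tests the differences seen beside EV. TAZ-CAMTA1 differed from the libraries labelled TAZ4SA in 7 of the 9 genes, 4 higher and 3 lower, where 53.7% of all genes were called, 26.9% higher and 26.8% lower. TGFB3 was higher by 2.70 (SE 0.16, adjusted p = 1.52e-12) and TGFBR3 by 2.11 (SE 0.17, adjusted p = 2.48e-10), followed by TGFBR2 at 0.92 (SE 0.10) and TGFBR1 at 0.80 (SE 0.14). INHBA was lower, at -3.20 (SE 0.23, adjusted p = 4.33e-11), as were TGFB2 at -2.03 (SE 0.14) and TGFB1 at -0.54 (SE 0.12). No library of one group overlapped the other in any of these 7. How many of all genes also showed no overlap was not counted. All 7 calls held without each library in turn. With total-count scaling the median of all genes moved from 0.029 to 0.227 and the share of higher calls from 50.1% to 67%.

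YAP-TFE3 differed from YAP5SA in 7 of the 9 genes too, 5 higher and 2 lower, against 52.4% of all genes, 28.1% higher and 24.3% lower. INHBA was lower, at -3.53 (SE 0.25, adjusted p = 3.31e-11), and so was TGFB2, at -1.69 (SE 0.13, adjusted p = 2.57e-10). TGFBR3 was higher by 1.15 (SE 0.16), TGFBR2 by 1.03 (SE 0.10), TGFB3 by 0.90 (SE 0.16) and TGFB1 by 0.44 (SE 0.12). TGFBR1 was called at 0.42 (SE 0.14, adjusted p = 0.0152), but its libraries overlapped, at 123, 107 and 76.4 CPM against 77.8, 71.8 and 79.4 CPM. That call was lost without YAP-TFE3 replicate 1 (0.27, adjusted p = 0.139) or YAP5SA replicate 2 (0.38, adjusted p = 0.0604) and with only the groups compared (0.41, adjusted p = 0.0598), and it was 0.59 without YAP-TFE3 replicate 3. SMAD7, at -0.42 (SE 0.18, adjusted p = 0.0571), was called without YAP5SA replicate 1 (-0.53, adjusted p = 0.032), by DESeq2 (-0.43, adjusted p = 0.045) and with no filter on low counts (-0.40, adjusted p = 0.0257). The median of all genes moved from 0.0489 to 0.148 with total-count scaling.

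**Figure D4:**
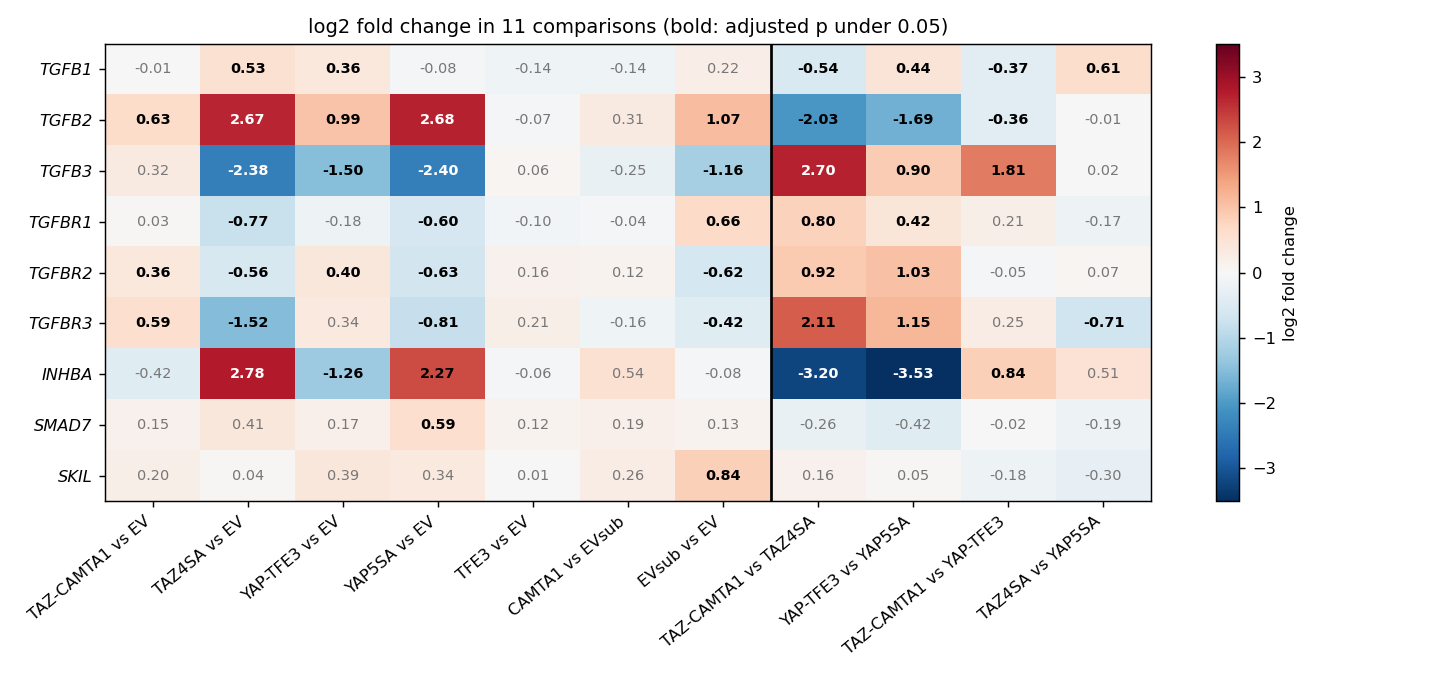
Log2 fold change of the 9 genes in 11 comparisons, with the values written in the cells and in bold where the adjusted p is under 0.05. The comparisons left of the vertical line are against empty vector and those right of it are between constructs, where TGFB2 and INHBA reach -2.03 and -3.20 in TAZ-CAMTA1 against TAZ4SA.

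The fusions differed from each other mainly in TGFB3. Against YAP-TFE3, TAZ-CAMTA1 gave 4 calls among the 9, 2 higher and 2 lower, where 42.7% of all genes were called, 19.9% higher and 22.8% lower. Only 1 call was left without TAZ-CAMTA1 replicate 1 or YAP-TFE3 replicate 2, and 2 without TAZ-CAMTA1 replicate 2 or YAP-TFE3 replicate 1. TGFB3 was 1.81 higher (SE 0.15, adjusted p = 6.37e-10) with no overlap of libraries, and this call held without each library in turn. The others were near the threshold: INHBA at 0.84 (SE 0.31, adjusted p = 0.0318), TGFB1 at -0.37 (SE 0.12, adjusted p = 0.0171) and TGFB2 at -0.36 (SE 0.13, adjusted p = 0.0326). INHBA was lost without any 1 library except TAZ-CAMTA1 replicate 3, at 0.60 to 0.89 and adjusted p-values of 0.051 to 0.216, and also by DESeq2 (0.85, 0.065), with no filter on low counts (0.83, 0.103) and with only the groups compared (0.87, 0.0934). TGFB1 was lost without TAZ-CAMTA1 replicate 1 or 2 or YAP-TFE3 replicate 2, at -0.30 to -0.26 and 0.083 to 0.123. TGFB2 was lost without TAZ-CAMTA1 replicate 1 or 3 or YAP-TFE3 replicate 1 or 2, at -0.35 to -0.27 and 0.0828 to 0.147. Both were also lost with total-count scaling (adjusted p = 0.0801 and 0.113) and with only the groups compared (0.122 and 0.0673). TGFBR3 was called only without YAP-TFE3 replicate 3 (0.42, adjusted p = 0.0345). With total-count scaling the share of higher calls went from 46.5% to 57.5%.

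The full-length forms differed from each other in 2 of the 9, 1 higher and 1 lower, against 7.17% of all genes, 3.53% higher and 3.64% lower, and in 1 without TAZ4SA replicate 2 or YAP5SA replicate 3. TGFB1 was 0.61 higher in the libraries labelled TAZ4SA than in YAP5SA (SE 0.12, adjusted p = 0.00218), and TGFBR3 was lower, as given above. For TGFB3 the difference was 0.02 (95% interval -0.31 to 0.35) and for TGFBR2 0.07 (-0.13 to 0.26). INHBA did not overlap, at 5.1, 5.07 and 4.78 CPM against 4.39, 3.52 and 2.61 CPM, but its difference of 0.51 (SE 0.19) had an adjusted p of 0.106. It was called without YAP5SA replicate 1 (0.71, adjusted p = 0.044).

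The wider pathway was described with a list of 50 further genes in 7 roles, of which 45 were tested. In the libraries labelled TAZ4SA 26 of the 45 were called against EV, 18 higher and 8 lower, and in YAP5SA 25, 17 higher and 8 lower. YAP-TFE3 gave 22, 12 higher and 10 lower, TAZ-CAMTA1 7, 2 higher and 5 lower, and EVsub 22, 11 in each direction. For TAZ-CAMTA1 the count was 13 with no filter on low counts or with only the groups compared, 3 without EV replicate 1 or 3, 2 without EV replicate 2 or TAZ-CAMTA1 replicate 2 and 4 without TAZ-CAMTA1 replicate 3. TFE3 gave 0, with 2 at an unadjusted p under 0.05 and 0 by DESeq2, and CAMTA1 against EVsub gave 3, all higher, with 6 by DESeq2 and 1 without EVsub replicate 2. Of all genes, 49.2% were called in TAZ4SA, 44.3% in YAP5SA, 48.2% in YAP-TFE3, 4.98% in TAZ-CAMTA1 and 36.8% in EVsub against EV. For TFE3 the share was 0.035% and for CAMTA1 against EVsub 1.83%. The 22 of 45 in YAP-TFE3 is near the share of all genes. The shares by direction are those given above for each comparison. The median absolute log2 change of the 45 was 0.42 for TAZ4SA, equal to that of all genes, 0.49 against 0.38 for YAP5SA, and 0.23 against 0.17 for TAZ-CAMTA1.

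Among the other ligands, INHBB and INHBE stood out. INHBB, which encodes the subunit of activin B, held 4 counts in all 3 EV libraries together, from 0 to 3 each, against 184 to 233 in each library labelled TAZ4SA and 211 to 214 in each of YAP5SA. The ratios of summed counts, scaled for library size, were 157 (exact 95% interval 61.1 to 579) and 180 (70.1 to 664), and the intervals cover counting error only. In TAZ-CAMTA1 and YAP-TFE3 INHBB was at 0.0639 ± 0.0617 and 0.0695 ± 0.0651 CPM, near 0.06 ± 0.076 CPM in EV. INHBE, the subunit of activin E, was at 1.94 ± 0.896 CPM in EV and 56.5 ± 41.8 CPM in YAP-TFE3, a log2 change of 4.90 (SE 0.54, adjusted p = 6.01e-08), or 5.41 without YAP-TFE3 replicate 3, the library that was far below the other 2. In TAZ4SA and YAP5SA it changed by 3.32 and 3.5, both called, and in TAZ-CAMTA1 by -0.12. GDF11, a ligand related to myostatin, was lower in TAZ4SA (-1.54), YAP5SA (-1.48), YAP-TFE3 (-0.68) and EVsub (-0.43). It was named after its values were seen.

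Of the 8 genes of latency and activation, 4 were called in each of TAZ4SA, YAP-TFE3, YAP5SA and EVsub against EV, where 49.2%, 48.2%, 44.3% and 36.8% of all genes were. In YAP-TFE3 2 were higher and 2 lower, and in the other 3 groups 1 was higher and 3 lower. LTBP1 and LTBP3, which bind latent TGF-β in the matrix, were lower in TAZ4SA (-1.43 and -0.36), YAP5SA (-0.80 and -0.75) and EVsub (-0.94 and -0.75), and were chosen with those values in view. In YAP-TFE3 LTBP3 (-0.63, adjusted p = 1.80e-04) and LTBP2 (-0.83, adjusted p = 8.09e-06) were lower, while LTBP1 (0.09) was not called. THBS1, whose product thrombospondin 1 can activate latent TGF-β, was the 1 gene of this role called in every comparison with empty vector except TFE3. From 32.8 ± 3.91 CPM in EV, its level went to 54.1 ± 3.45 CPM with TAZ-CAMTA1, to 108 ± 24.3 CPM with YAP-TFE3, to 126 ± 4.4 CPM under the TAZ4SA label and to 212 ± 15.7 CPM with YAP5SA. In TAZ-CAMTA1 it rose by 0.72 (SE 0.14, adjusted p = 0.00181), and in CAMTA1 against EVsub by 0.85 (SE 0.13, adjusted p = 4.52e-04). NRROS, a membrane protein that anchors latent TGF-β, was lower in TAZ4SA (-1.15), in YAP5SA (-2.37) and in TAZ-CAMTA1 at -0.66 (SE 0.17, adjusted p = 0.0257), a call lost without EV replicate 2 or 3 or TAZ-CAMTA1 replicate 2 or 3, at -0.69 to -0.49 and adjusted p-values of 0.0635 to 0.196.

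The extracellular antagonists FST and FSTL3, which bind activins, were both higher in the libraries labelled TAZ4SA, at 3.01 and 1.38, and in YAP5SA, at 3.66 and 2.29. FST stood at 2.59 ± 0.844 CPM in EV and 33.2 ± 9.27 CPM in YAP5SA (SE 0.24, adjusted p = 1.19e-11). In YAP-TFE3 FSTL3 rose by 2.03 (SE 0.15, adjusted p = 8.16e-11), from 23.5 ± 2.43 to 95.8 ± 22.6 CPM, while FST changed by 0.51 and was not called. Neither was called in TAZ-CAMTA1. EVsub had FST 1.67 above EV (SE 0.24, adjusted p = 2.23e-05).

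Of the 3 signalling SMADs, SMAD3 rose in TAZ4SA (0.28), YAP-TFE3 (0.36), YAP5SA (0.38) and EVsub (0.31), and SMAD2 in YAP-TFE3 (0.42), YAP5SA (0.23) and EVsub (0.43). These were named after their values were seen, and SMAD4 was not called in any comparison with empty vector. Of the 8 intracellular brakes, 5 were called in the libraries labelled TAZ4SA, 3 higher and 2 lower, where 49.2% of all genes were called. In YAP5SA 4 were called, 3 higher and 1 lower, against 44.3% of all genes. In YAP-TFE3, where 48.2% of all genes were called, TGIF1 rose by 1.80 (SE 0.15, adjusted p = 8.96e-10). TGIF2 (-0.83) and SKI (-0.48) were called lower there, and these brakes were named after their values were seen. PMEPA1, a brake that sequesters SMAD proteins, was lower in TAZ-CAMTA1 by 0.60 (a log2 change of -0.60, SE 0.14, adjusted p = 0.0136), and that call was lost without EV replicate 1 or 2 or TAZ-CAMTA1 replicate 2 or 3, at -0.57 to -0.48 and adjusted p-values of 0.0556 to 0.12. The pseudoreceptor gene BAMBI, named after its values were seen, was lower in TAZ4SA (-1.83), YAP-TFE3 (-1.27), YAP5SA (-1.39) and EVsub (-0.62), from 165 ± 20.5 CPM in EV.

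Of the 14 targets, 8 were called in the libraries labelled TAZ4SA, 7 higher and 1 lower, where 49.2% of all genes were called, 25.1% higher. In YAP5SA 8 were called, 6 higher and 2 lower, against 44.3% of all genes, 22.7% higher. CCN2, which encodes a matricellular protein and is also a known target of YAP and TAZ, and TAGLN were among the called targets. CCN2 rose from 21.3 ± 5.11 CPM in EV to 596 ± 40.3 CPM under the TAZ4SA label, a log2 change of 4.80 (SE 0.21, adjusted p = 9.67e-15). It reached 493 ± 26.7 CPM with YAP5SA, 186 ± 36.6 CPM with YAP-TFE3 and 120.4 ± 5.4 CPM with TAZ-CAMTA1, where the log2 change was 2.49 (SE 0.19, adjusted p = 3.79e-09). TAGLN, a smooth muscle actin-binding protein, rose by 3.63 in TAZ4SA and 3.68 in YAP5SA (SE 0.21 for both) and by 2.03 in EVsub, and fell by 1.24 in YAP-TFE3.

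The targets did not move as 1 group. In YAP-TFE3, where 48.2% of all genes were called, CDKN2B (1.58) and ACTA2 (0.70) were among those called higher. COL1A1 (-1.18) and TGFBI (-0.50) were among those called lower there, and all of these were named after their values were seen. In TAZ-CAMTA1, where 4.98% of all genes were called, 4 of the 14 were, CCN2 higher and TGFBI (-0.39), CDKN1A (-0.52) and SNAI1 (-0.37) lower. The last 3, named after their values were seen, had adjusted p-values of 0.0421 to 0.0499. FN1, which encodes fibronectin, was lower in EVsub by 1.52 (a log2 change of -1.52, SE 0.23, adjusted p = 3.07e-05), from 4156 ± 529 CPM in EV to 1451 ± 103 CPM, and it was the target that fell in TAZ4SA (-1.82). In CAMTA1 against EVsub the called targets were COL7A1, at 0.91 (SE 0.20, adjusted p = 0.0105), and CCN2, at 0.86 (SE 0.18, adjusted p = 0.00809). Both were lost without EVsub replicate 2 (0.81 and 0.72) or CAMTA1 replicate 1 (0.76 and 0.79), at adjusted p-values of 0.0564 to 0.114.

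**Figure D5:**
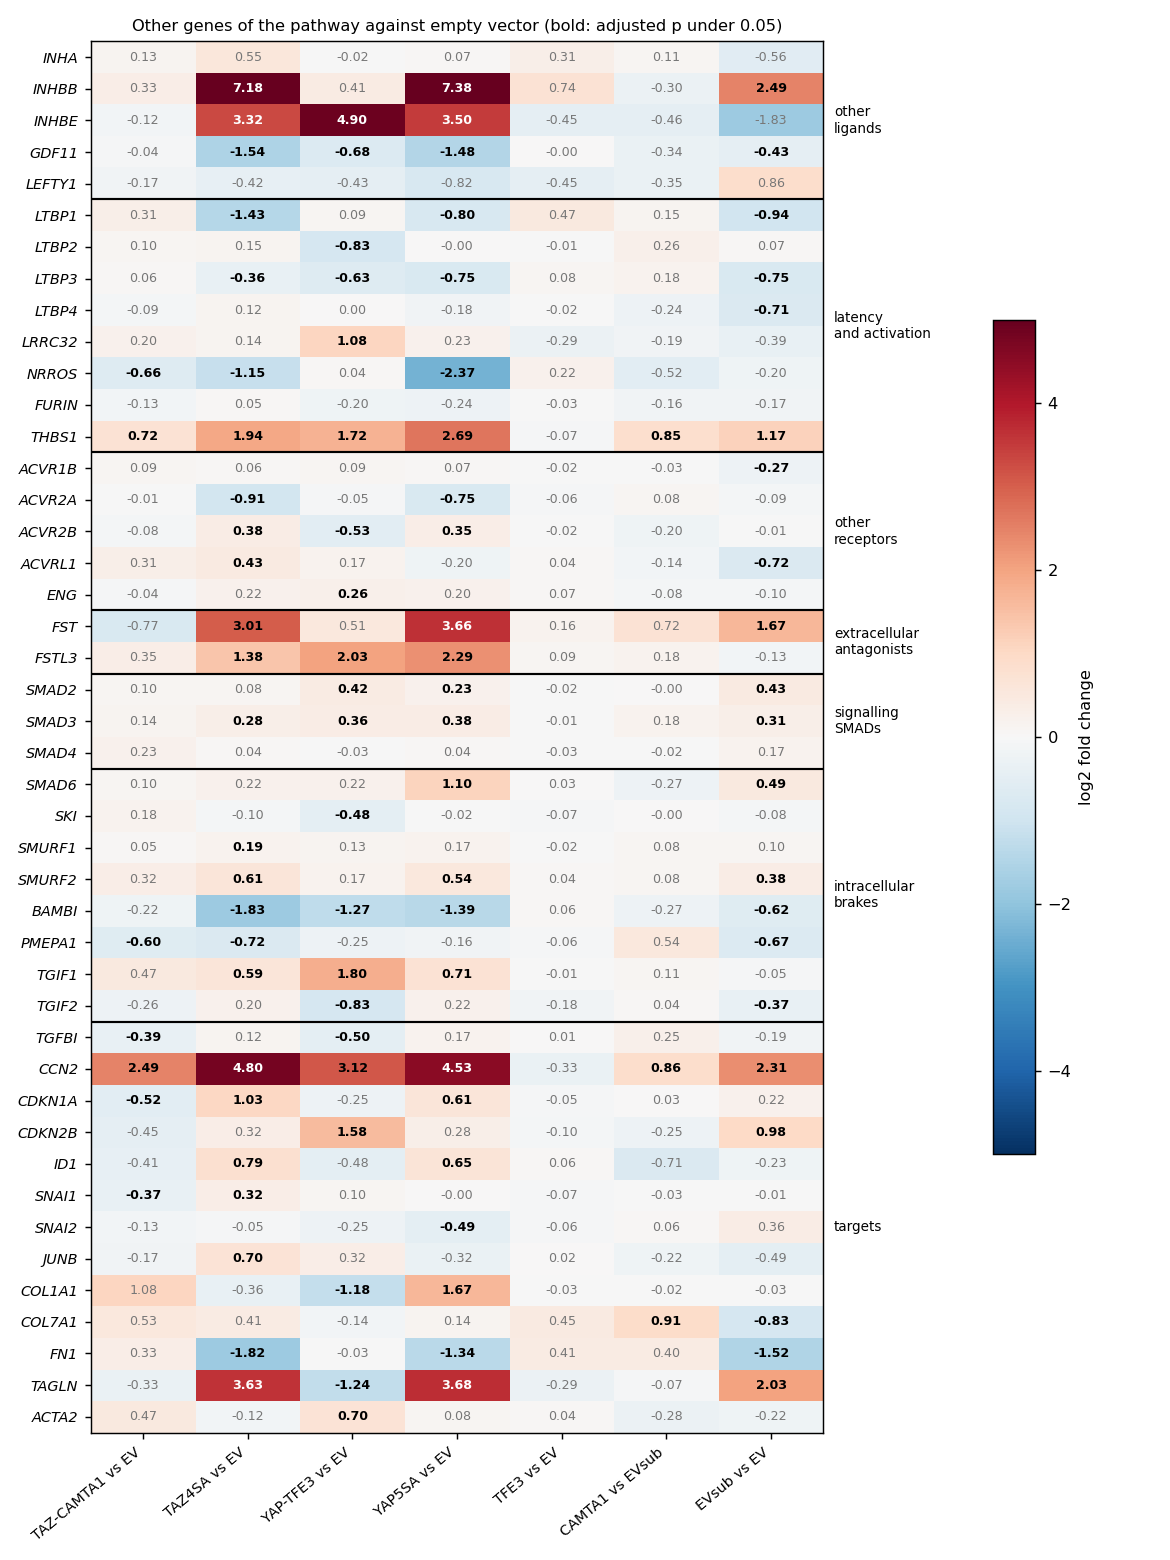
Log2 fold change against empty vector for tested genes of the wider pathway, grouped by role, with bold values where the adjusted p is under 0.05 and colours that stop at 5 in each direction. CCN2 is bold in 6 of the 7 columns, and the TFE3 column holds no bold value.

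TAZ-CAMTA1 and TAZ4SA differed in 28 of the 45 genes, 10 higher and 18 lower in TAZ-CAMTA1, and YAP-TFE3 and YAP5SA in 27, 12 higher and 15 lower, where 53.7% and 52.4% of all genes were called. Of the 14 targets, 12 differed in the first pair, 3 higher and 9 lower in TAZ-CAMTA1, and 10 in the second, 4 higher and 6 lower in YAP-TFE3. TAGLN was lower in both fusions than in their partners, at -3.96 (adjusted p = 5.39e-13) and -4.92 (adjusted p = 2.25e-14). The fusions differed from each other in 24 of the 45 genes and the full-length forms in 10, where 42.7% and 7.17% of all genes were called.

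The genes with the profiles most like those of the members across the 24 libraries were also listed. Of 13318 ranked genes, CRIM1 (Pearson r = 0.986) and KRT80 (0.983) had the log2 CPM most like that of TGFB2, and PLCD4 (0.978) and AUTS2 (0.972) that of TGFB3. For TGFBR1 they were GNAI3 (0.983) and PUS7L (0.982), for TGFBR2 COL4A5 (0.970) and PTHLH (0.958), and for TGFBR3 POSTN (0.954) and OTULINL (0.948). INHBA was most like PABPC1 (0.972) and KISS1 (0.959). The best matches of SKIL were CEP63 (0.931) and GULP1 (0.919), those of TGFB1 ABHD12 (0.859) and SLC35E4 (0.831) and those of SMAD7 VWF (0.770) and SYT15B (0.750). The libraries fall into 8 groups, so these values describe likeness of group profiles and share depth and scaling.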

How the data were processed

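RNA of SW872 cells was sequenced as 75 bp read pairs from stranded poly(A) libraries. Per the study's methods, the authors ran bcbio-nextgen 1.0.8 with Hisat2 on hg38 with Ensembl 78 and deposited raw counts per gene for each of 24 libraries. The authors also quantified transcripts with Salmon and summed them to genes with tximport. The deposited values are all whole numbers, and which route made them, and how it treated strand and shared reads, is not stated.

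The deposited counts were fitted for all 24 libraries with edgeR 4.0.16 in R 4.3.3, with a mean per group, TMM scaling, genes of at least 5 counts on average, the quasi-likelihood F test and Benjamini-Hochberg adjustment over 19997 genes. The SE is the log2 fold change divided by the square root of F. CPM are relative to TMM-scaled totals, and levels per kb use exon lengths of GENCODE 44, in which 56104 of 60279 identifiers (93.1%) were found. The code was tested on simulated data. Alternatives were total-count scaling, no filter, a mean of 50 counts, only the groups compared, a replicate block, DESeq2 1.42.0 and leaving out each library.

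Totals of 19700277 to 35287476 counts gave INHBA a mean of 12.7 to 100.2 counts per library in each comparison, the lowest of the 9 genes. The members and lists were chosen with earlier results of these data known. Named were the 9 members, the 4 construct genes, overlapping genes, called pathway genes averaging 100 counts and among the 4 largest changes of a comparison with empty vector, and the 2 genes of at least 50 counts most like each member by Pearson r of log2 CPM (prior count 2). Groups were taken from the sample titles. 1 gene of the list is counted in the totals but not reported here by name.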

Additional observations from a re-analysis of the deposited data

How the results depend on the processing

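Of 1453 single-gene values refitted under the alternatives, 1378 stayed on the same side of the threshold, 62 lost a call and 13 gained one. None of the called values changed direction. Of the 1378, 37 that were not called in either fit had the other sign, at -0.39 to 0.25. Without the filter on low counts, pathway genes called were 13 for TAZ-CAMTA1 against EV in place of 7, 2 for TFE3 against EV in place of 0 and 8 for CAMTA1 against EVsub in place of 3. With only the groups compared in the fit they were 13 and 7 for the first and last of these, and 6 by DESeq2 for the last. The 9 members gave 2 calls with total-count scaling and 1 with only the groups compared, in place of 4, for TAZ-CAMTA1 against YAP-TFE3. Among all genes, TFE3 against EV had 7 calls, or 40 without the filter, 15 by DESeq2 and 2 with only the groups compared, and CAMTA1 against EVsub had 366, or 652 without the filter and 648 with only the groups compared. The cause was not tested.

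Leaving out 1 library at a time gave 1 to 3 members called for TAZ-CAMTA1 against EV, with 1 called without EV replicate 1 or 2 or TAZ-CAMTA1 replicate 2 or 3. It gave 1 to 4 for TAZ-CAMTA1 against YAP-TFE3 and 1 to 3 for TAZ4SA against YAP5SA. Pathway genes called ran from 2 to 6 for TAZ-CAMTA1 against EV and from 1 to 3 for CAMTA1 against EVsub. The members gave 7 calls in every such fit of TAZ4SA against EV and of TAZ-CAMTA1 against TAZ4SA.

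Replicate numbers were not shown to pair libraries: same-numbered deviations correlated at a mean of -0.0257 to 0.189 per comparison, at most 2 of 3 pairs exceeded 0.1, and every library correlated best with its own number only in YAP-TFE3 against EV. With the number as a replicate block, calls over all genes went from 996 to 1105 for TAZ-CAMTA1 against EV, and the block gained 1 call among the members, TGFBR3 in YAP-TFE3 against EV (0.33, adjusted p = 0.0183). INHBA, with 8 to 127 counts per library, is the member whose precision depth limits most.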
